A study of Mus musculus with 24 samples.

Results

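The 10 genes described here encode class I cyclic nucleotide phosphodiesterases of mouse islet cells: Pde1a, Pde1c, Pde2a, Pde3a, Pde3b, Pde4a, Pde4b, Pde4d, Pde8b and Pde10a. Their rows were taken by symbol from an mRNA sequencing table of 41549 genes. Each symbol matched 1 row. The genes had been selected on their measured values in the PA and αGlu comparisons of these same libraries (the groups are described next), so their changes with palmitate and with the oligonucleotide are given as a description, and their fitted p-values support no general statement about the family. The table holds 21 class I phosphodiesterase genes, and the other 11 are described only by their counts and by those that passed the test.

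The cells were dispersed islets from C57BL/6NRj mice of both sexes, 12 to 14 weeks old, a mixture in which beta cells predominate and which also holds other endocrine cells, macrophages, endothelial cells, fibroblasts and pericytes. They were transfected overnight with lipofectamine and either a control antisense oligonucleotide (Ctr) or an antisense oligonucleotide directed against the 5′ tRNA fragment of Glu-CTC (αGlu), and were then kept for 48 h with 0.5 mM palmitate (PA) bound to bovine serum albumin or with 0.75% albumin alone (BSA). The 4 groups, Ctr and αGlu each with BSA or PA, had 6 libraries each, and all had received lipofectamine, an oligonucleotide and albumin. The target of the oligonucleotide is a small RNA that mRNA libraries do not measure, so the knockdown could not be checked in these data. By qPCR, the study reports a reduction of this fragment in mouse islet cells after transfection of the oligonucleotide. The 24 libraries, S1 to S24, fall into batches 1 and 2, with 3 libraries of every group in each. What a batch stands for is not recorded. The study describes independent experiments in which the groups of a replicate came from the same animals, but the records do not say which libraries belong to 1 experiment, so the fit treats libraries within a batch as unpaired and its p-values measure the spread between them.

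Phosphodiesterases break down the second messengers cAMP and cGMP and so end their signals. In beta cells, cAMP made by adenylyl cyclases after a signal from the GLP-1 receptor increases insulin secretion through protein kinase A and Epac2, and phosphodiesterases hold this signal down. The families differ in their substrate and their control. PDE1 enzymes need calcium and calmodulin, PDE2A is activated by cGMP, PDE3 enzymes split cAMP and are inhibited by cGMP, PDE4 and PDE8 enzymes are specific for cAMP, and PDE10A splits both messengers.

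The sequences of the oligonucleotide and of its target are shown first, because αGlu and Ctr differed in this oligonucleotide. Capitals in the target mark the 20 bases complementary to the oligonucleotide.
αGlu oligonucleotide: taaccactagaccaccaggg
Target in the 5′ tRNA fragment: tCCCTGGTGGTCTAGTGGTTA
Transcripts of the 10 phosphodiesterase genes held no match to the whole oligonucleotide. Their longest runs of perfect complementarity were 9 bases in Pde4a and Pde4d, 8 bases in Pde1a, Pde1c, Pde3b, Pde8b and Pde10a, and 7 bases in Pde2a, Pde3a and Pde4b. Runs of this length were common: 19.5% of the 15909 tested genes with annotated transcripts held a run of at least 9 bases, 55.5% at least 8 and 90.04% at least 7.

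The next sequences are shown because they are where the Pde2a gene and an overlapping gene, Gm45837, part. Each run gives the last 30 bases of a transcript's first exon in capitals, followed by the first 20 bases of the next exon in lower case, on the plus strand of chromosome 7 in GRCm38.
Gm45837-201: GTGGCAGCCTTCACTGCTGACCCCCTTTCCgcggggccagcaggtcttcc
Pde2a-201: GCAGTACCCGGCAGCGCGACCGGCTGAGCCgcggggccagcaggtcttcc
Pde2a-204: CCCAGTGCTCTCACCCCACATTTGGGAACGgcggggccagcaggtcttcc
All bases shown are coding. The first exons lie at 101410886 to 101411069 for Gm45837, at 101421691 to 101421995 for Pde2a-201 and at 101450520 to 101450728 for Pde2a-204, and all 3 transcripts join the same exon at 101451402 to 101451468. The first exon of Gm45837, of 184 bases, is its only sequence outside the exons of Pde2a.

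Library totals ran from 18214719 to 35001979 counts, and all 10 genes had enough counts to be tested, among 15916 genes. Levels are given as CPM, the counts of a library scaled to a common total with the trimmed mean of M-values (TMM), and differences as log2 fold changes with their standard error (SE) from an edgeR quasi-likelihood fit with terms for group and batch. A gene was called at a Benjamini-Hochberg adjusted p below 0.05 over all tested genes. The markers of beta cells, led by insulin, were the most abundant of the marker lists in every group. In bulk libraries, fewer cells of a type and less RNA per cell cannot be told apart.

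With PA, Pde4b and Pde10a were lower and Pde1c was higher in both Ctr and αGlu islet cells, and Pde4d and the Pde2a row were lower by the test in αGlu cells. In Ctr cells 3 of the 10 genes were called, 1 higher and 2 lower, where 30% of all tested genes were called, 15.5% higher and 14.5% lower. The share of the 10 genes equalled the background. In αGlu cells 5 of the 10 were called, 1 higher and 4 lower, against 28.5% of all genes, 14.4% higher and 14.2% lower. A second rule, with the thresholds given in the results of the study, asked for a size of change. It required a change of more than 2-fold and p below 0.05 before adjustment. No member met it in Ctr cells and only Pde2a met it in αGlu cells, where 5.91% and 5.57% of all genes did. The median log2 difference over the 10 genes was −0.17 in Ctr and −0.22 in αGlu cells, beside 0.01 over all genes in both. Each of the 4 groups entered 2 of the group comparisons, so these share libraries.

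**Figure D1:**
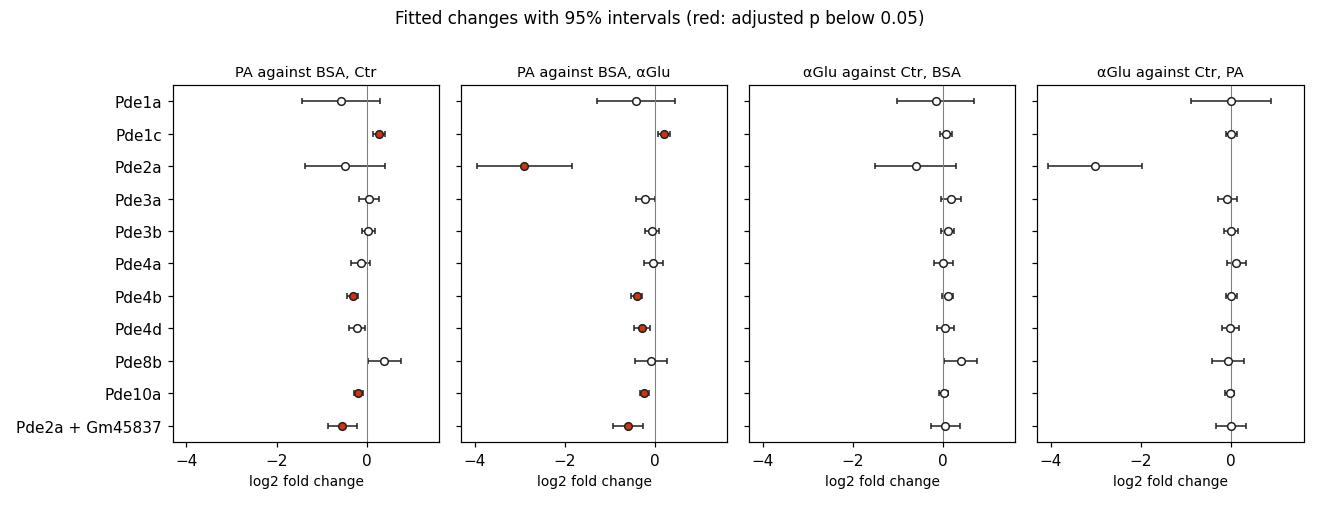
Log2 fold changes of the 10 genes and of the sum of the Pde2a and Gm45837 rows in the 4 group comparisons, with 95% intervals from the edgeR fit and red points where the adjusted p was below 0.05. The Pde2a row stands far below 0 in αGlu PA against Ctr PA, while the interval of the sum, from −0.34 to 0.32, spans 0.

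Pde1c and Pde1a are the calcium- and calmodulin-dependent members. Pde1c lies on the minus strand at chr6:56069804-56569103 in GRCm38. Its CPM was 37.9 at the lowest, 47.4 at the median and 62.1 at the highest in Ctr BSA, and 44.6, 58 and 71.9 in Ctr PA. In αGlu BSA it was 39.8, 49.7 and 62.6, and in αGlu PA 46.3, 54.7 and 70.6. The groups overlapped over both batches, since batch 2 libraries were higher, but within each batch the 3 Ctr PA libraries lay above the 3 Ctr BSA libraries. Such a separation, higher in both batches or lower in both, was shown by 13.7% of all genes. Pde1c rose with PA by 0.26 (SE 0.0627, adjusted p = 0.00280) on the log2 scale in Ctr and by 0.20 (SE 0.0625, adjusted p = 0.0205) in αGlu cells. The call in αGlu cells was lost when 1 of 3 libraries was left out (αGlu BSA S6, αGlu PA S4 or αGlu PA S20), with an adjusted p of up to 0.0614.

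Pde1a, at chr2:79834453-80129458 on the minus strand, was close to the limit of measurement, with 5 to 64 counts in a library. With BSA and with PA its median CPM was 1.40 and 1.01 in Ctr and 1.22 and 0.884 in αGlu cells. The groups overlapped widely, and its log2 differences with PA, −0.58 (SE 0.42) in Ctr and −0.41 (SE 0.42) in αGlu cells, were within the spread of the libraries.

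Pde2a encodes the cGMP-activated enzyme of both messengers. Its row had the largest difference of the 10 genes between αGlu and Ctr, and that difference was absent from the sum of the row and of an overlapping gene. Pde2a (ENSMUSG00000110195) lies at chr7:101421691-101512827 on the plus strand with 12 transcripts, and the protein-coding gene Gm45837 (ENSMUSG00000030653) lies at chr7:101410886-101512819 on the same strand with 1 transcript. They share 3955 exon bases, which are 95.6% of those of Gm45837 and 64.3% of those of Pde2a. The table gives each gene its own counts, and how reads in shared exons were assigned is not stated in the sources.

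The Pde2a row held 2.71 CPM at the lowest, 6.17 at the median and 17.7 at the highest in Ctr BSA, and 1.62, 4.43 and 18.8 in αGlu BSA. In Ctr PA it held 1.45, 5.53 and 14.4, and in αGlu PA 0, 0.724 and 2.32. Batch 1 and batch 2 differ widely, and within each batch all 3 αGlu PA libraries lay below all 3 Ctr PA libraries. Such a separation, higher in both batches or lower in both, was shown by 0.521% of all genes.

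The Gm45837 row had its highest median in αGlu PA, where the Pde2a row had its lowest. In Ctr cells its CPM was 0, 4.93 and 15.1 with BSA (lowest, median and highest) and 0, 1.23 and 10.6 with PA. In αGlu cells it was 0.0705, 5.58 and 19.8 with BSA and 3.5, 7.20 and 19.2 with PA. It had 0 counts in 5 Ctr libraries, 2 with BSA and 3 with PA, and in these the Pde2a row held all counts of the locus. The Pde2a row in turn had 0 counts in the αGlu PA library S16, where Gm45837 had 107.

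Of the counts in both rows together, the Pde2a row held 15.2% to 100% in Ctr BSA, with a median of 67.1%, and 36.9% to 100% in Ctr PA, with a median of 75.4%. It held 22.7% to 99.6% in αGlu BSA, with a median of 25.7%, and 0% to 17.8% in αGlu PA, with a median of 8.21%. The highest share in αGlu PA was below the lowest in Ctr PA and in αGlu BSA, while αGlu PA overlapped with Ctr BSA. In batch 2 the 3 αGlu BSA libraries stood between 22.7% and 25.8% and the 3 Ctr BSA libraries between 62.7% and 100%, whereas in batch 1 both groups ranged widely.

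**Figure D2:**
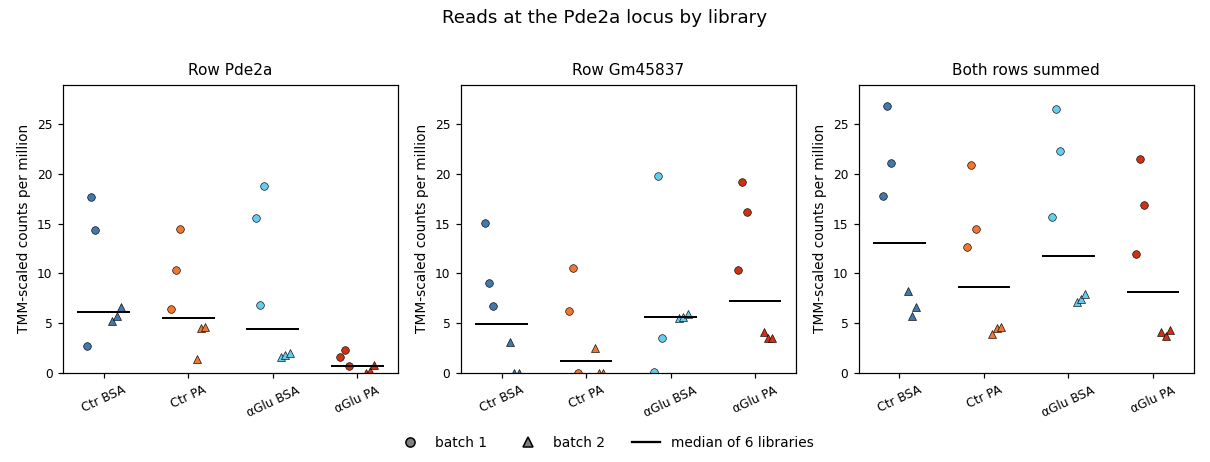
CPM of the Pde2a row, of the Gm45837 row and of their sum in each of the 24 libraries, by group and batch. The αGlu PA libraries are low in the Pde2a row, at most 2.32 CPM, and lie among the Ctr PA libraries in the sum, at 3.71 to 21.5 against 3.92 to 21 CPM.

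The sum of both rows did not set αGlu apart from Ctr. With BSA it was 5.70, 13 and 26.8 CPM (lowest, median and highest) in Ctr cells and 7.14, 11.8 and 26.6 in αGlu cells. With PA it was 3.92, 8.63 and 21 CPM in Ctr and 3.71, 8.13 and 21.5 in αGlu cells. The batches did not overlap in any group, and within batch 2 the 6 PA libraries, at 3.71 to 4.65 CPM, were all below the 6 BSA libraries, at 5.70 to 8.25 CPM.

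For αGlu PA against Ctr PA, the Pde2a row differed by −3.02 (SE 0.51, adjusted p = 0.0593), the first of all genes by p, and the Gm45837 row by 1.68 (SE 0.87, adjusted p = 0.993). Markers of Schwann cells and enteric glia summed to 20.3 to 56.4 CPM in αGlu PA and 44.3 to 92.9 CPM in Ctr PA, ranges that overlapped, with a median log2 difference of −2.90 over 9 tested markers and none of them called. For αGlu BSA against Ctr BSA the median over these markers was −2.52, with none called. The Pde2a row differed there by −0.61 (SE 0.43). Within each batch Cdh19, Foxd3, S100b and Sox10 were lower in all αGlu PA than in all Ctr PA libraries, while the other tested markers overlapped. Of all genes, 0.521% separated in the same direction in both batches, higher or lower. After centring on batch means, r over 24 libraries with the summed glial markers was 0.55 for the Pde2a row and 0.26 for the sum of the Pde2a and Gm45837 rows. The part of these markers in the differences of the Pde2a row was not tested. The sum of the Pde2a and Gm45837 rows differed by −0.01 (SE 0.16), with a 95% interval of −0.34 to 0.32. It differed by 0.07 within batch 1 and by −0.12 within batch 2, and by −0.15 to 0.12 when any 1 library was left out. The difference between both PA responses was −2.41 (SE 0.66, adjusted p = 0.999) for the Pde2a row and −0.05 (95% interval −0.52 to 0.41) for the sum.

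With PA, the sum fell by 0.55 (SE 0.16, adjusted p = 0.0110) on the log2 scale in Ctr and by 0.60 (SE 0.16, adjusted p = 0.00580) in αGlu cells, and it was called in all 24 fits that left out 1 library. Within batch 1 the differences were −0.47 and −0.37, neither of them called, and within batch 2 −0.65 and −0.89, both called. The Pde2a row alone gave −0.49 (SE 0.43, adjusted p = 0.416) in Ctr cells and fell by 2.90 (SE 0.51, adjusted p = 1.29e-04) in αGlu cells. The sum was added after the values of the locus had been seen. What set the division of reads between the rows was not tested.

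Pde3a and Pde3b are the cGMP-inhibited members, and PDE3B is the enzyme best known for limiting cAMP in beta cells. Pde3b, at chr7:114415281-114539251 on the plus strand, held 130, 162 and 191 CPM (lowest, median and highest) in Ctr BSA and 134, 159 and 229 in Ctr PA. In αGlu BSA it held 153, 167 and 198 CPM, and in αGlu PA 143, 168 and 178. All groups overlapped. Its PA differences were 0.03 (SE 0.0726) in Ctr and −0.07 (SE 0.0725) in αGlu cells, with 95% intervals of −0.12 to 0.18 and −0.22 to 0.08.

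Pde3a, at chr6:141249269-141507448 on the plus strand, was less abundant, with median CPM of 10.2 (BSA) and 10.7 (PA) in Ctr and 11.9 (BSA) and 10.5 (PA) in αGlu cells. Its lowest library held 8.22 CPM and its highest 15, and all groups overlapped. It differed by 0.04 (95% interval −0.18 to 0.26) with PA in Ctr cells and by −0.21 (95% interval −0.43 to 0.00) in αGlu cells. An antisense gene, Gm28523, overlaps 741 of its exon bases. Whether the counting used strand is not stated.

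Pde4a, Pde4b and Pde4d are the cAMP-specific members that rolipram inhibits. Pde4b, at chr4:102087543-102607259 on the plus strand, had the smallest p of the 10 genes with PA. Its CPM was 115 at the lowest, 130 at the median and 136 at the highest in Ctr BSA, and 87.5, 98.1 and 132 in Ctr PA. In αGlu BSA it was 123, 137 and 146, and in αGlu PA 85.3, 105 and 120. In αGlu cells every PA library was below every BSA library. A separation of 6 against 6, higher or lower, was shown by 8.12% of all genes. In Ctr cells the highest PA library reached the BSA range, and none of the 10 genes separated fully there, where 5.82% of all genes did.

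Pde4b fell with PA by 0.31 (SE 0.0587, adjusted p = 2.90e-04) on the log2 scale in Ctr and by 0.41 (SE 0.0586, adjusted p = 1.25e-05) in αGlu cells. Within batches 1 and 2 the differences were −0.42 and −0.21 in Ctr and −0.50 and −0.32 in αGlu cells. The difference between both PA responses was −0.10 (95% interval −0.27 to 0.07).

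Pde4d, at chr13:108449948-109953461 on the plus strand, held 11.7, 14.5 and 16.8 CPM in Ctr BSA and 11.5, 12.2 and 13 in Ctr PA. In αGlu cells it held 12.1, 14.1 and 18.1 CPM with BSA and 10.3, 11.8 and 14.1 with PA. The groups overlapped, but in αGlu cells the PA libraries lay below the BSA libraries within each batch. It fell by 0.29 (SE 0.0905, adjusted p = 0.0175) in αGlu cells, a call that was lost without αGlu BSA library S10 (adjusted p = 0.0601), and differed by −0.22 (adjusted p = 0.0685) in Ctr cells, where upper-quartile scaling called it (adjusted p = 0.0486). The responses were not distinguishable, with a difference of −0.07 (95% interval −0.33 to 0.19).

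Pde4a, at chr9:21165714-21213248 on the plus strand, had median CPM of 8.10 and 7.40 in Ctr and 8.37 and 7.28 in αGlu cells, with BSA and with PA, in libraries from 4.98 to 10.6. All groups overlapped. Its PA differences were −0.14 (95% interval −0.35 to 0.06) in Ctr and −0.04 (95% interval −0.24 to 0.17) in αGlu cells.

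Pde8b and Pde10a complete the set. Pde10a, at chr17:8525372-8986648 on the plus strand, held 111, 149 and 165 CPM in Ctr BSA and 113, 123 and 148 in Ctr PA. In αGlu cells it held 121, 147 and 173 CPM with BSA and 108, 122 and 138 with PA. The groups overlapped over both batches, and in αGlu cells the PA libraries lay below the BSA libraries in each batch. Pde10a fell by 0.19 (SE 0.0505, adjusted p = 0.00579) in Ctr and by 0.24 (SE 0.0504, adjusted p = 9.88e-04) in αGlu cells. In αGlu cells, Pde2a, Pde4b, Pde4d and Pde10a were the 4 members with full separation in the same direction in each batch, as 21% of all genes were.

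Pde8b encodes a high-affinity cAMP-specific enzyme and lies at chr13:95024454-95250336 on the minus strand, where the antisense gene Gm48420 overlaps 447 of its exon bases. Its median CPM was 2.48 with BSA and 3.49 with PA in Ctr, and 3.22 and 3.15 in αGlu cells, in libraries from 1.86 to 4.09. Ctr BSA had the lowest median, and its range overlapped those of the other groups. Against Ctr BSA, Pde8b differed by 0.39 (SE 0.17, adjusted p = 0.0973) in Ctr PA and by 0.39 (SE 0.17, adjusted p = 1.00) in αGlu BSA. These comparisons share the Ctr BSA libraries.

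**Figure D3:**
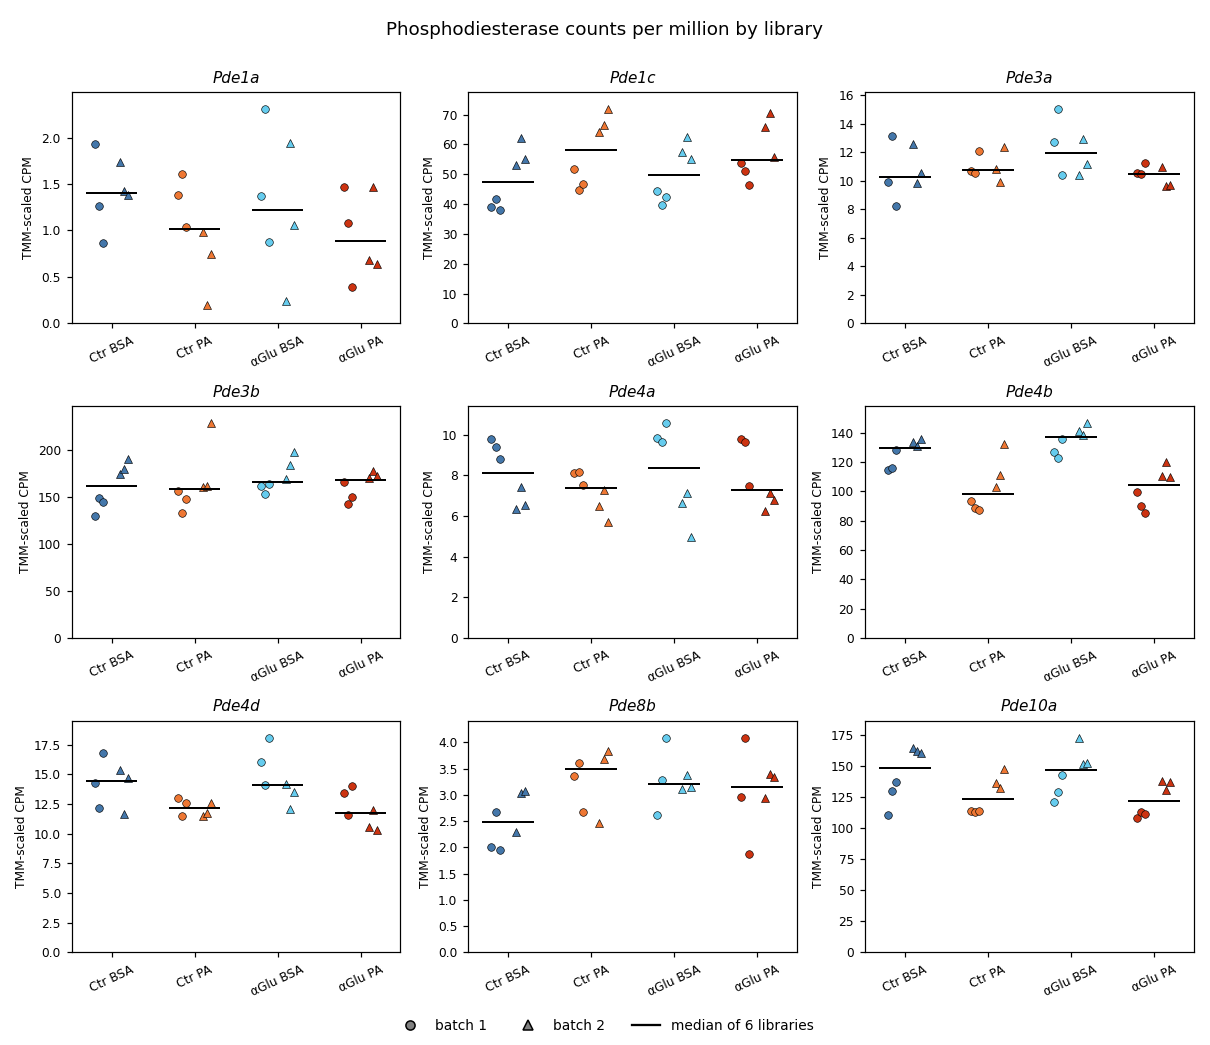
TMM-scaled CPM (linear axes from 0) of the 9 genes other than Pde2a in each library, by group, with circles for batch 1, triangles for batch 2 and a line at the median of 6 libraries. Pde4b separates αGlu PA, at most 120 CPM, from αGlu BSA, at least 123 CPM, and Pde1c and Pde10a are higher in batch 2 than in batch 1.

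No member was called for αGlu against Ctr with BSA or with PA, or for the difference between both PA responses, and 0% of all genes were called in each of these 3 comparisons by edgeR. At an unadjusted p below 0.05 the members numbered 1 in each: Pde8b with BSA, where 2.90% of all genes passed, and the Pde2a row with PA and in the difference of responses, where 3.38% and 2.09% passed. DESeq2 called 0 members with BSA, 1 with PA (the Pde2a row) and 0 in the difference of responses, and 0.0503%, 0.189% and 0% of all genes. By the rule of a change of more than 2-fold, the Pde2a row passed with PA and in the difference of responses, where 0.942% and 0.653% of all genes passed, and no member passed with BSA, where 0.785% did. None of the 10 separated αGlu from Ctr in the same direction in both batches with BSA, where 0.364% of all genes did. The 95% interval lay within 0.5 log2 units of 0 for 7 of the 10 genes with BSA and for 8 of the 10 with PA. The intervals for αGlu PA against Ctr PA were −0.12 to 0.12 for Pde4b, −0.14 to 0.07 for Pde10a, −0.13 to 0.13 for Pde1c and −0.16 to 0.14 for Pde3b.

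Levels of different genes were compared per length, in the deposited TPM, which are scaled for gene length and library size. In Ctr BSA the medians were 50.7 TPM for Pde3b, 34.7 for Pde4b, 32.1 for Pde10a and 6.58 for Pde1c, followed by 3.14 for Pde4d, 2.77 for Pde2a, 2.70 for Pde4a, 2.21 for Pde3a, 1.21 for Pde8b and 0.644 for Pde1a. The ranges of neighbours in this order overlapped, except between Pde10a and Pde1c and between Pde3a and Pde8b. Outside the 10 genes, Pde8a, another cAMP-specific member, had a median of 62.3 TPM. The values depend on the gene length used by the authors' portal and, for Pde2a, on the division of reads with Gm45837.

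**Figure D4:**
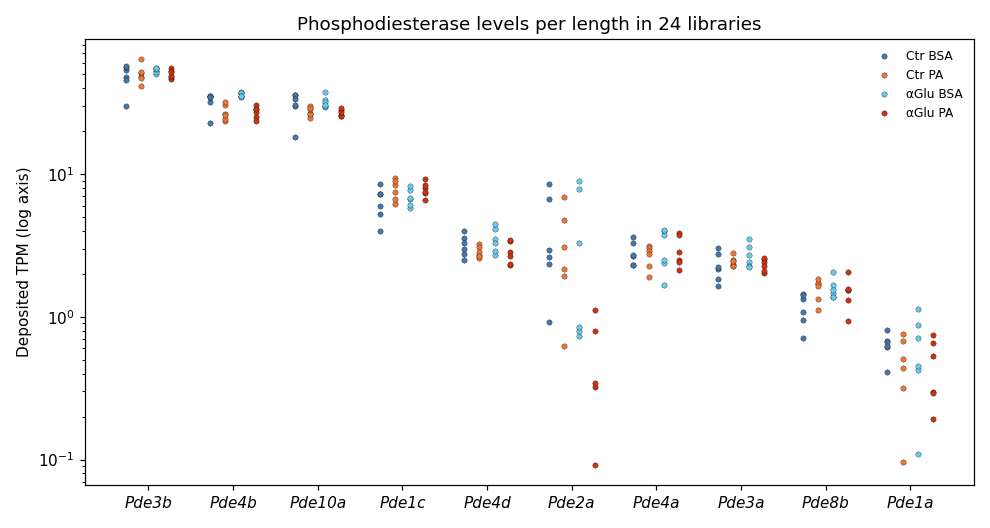
TPM of the 10 genes in each library on a log axis, ordered by their median in Ctr BSA, with groups distinguished. The levels run from a median of 50.7 for Pde3b to 0.644 for Pde1a, and the 1 αGlu PA library with Pde2a at 0 is not drawn.

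Batch moved several of the genes more than PA did. Between batches 7 of the 10 genes were called, as were 51.5% of all genes. In batch 2 the Pde2a row was lower by 1.84 (log2 difference −1.84), Pde4a differed by −0.46 and Pde4d by −0.15, while Pde1c was higher by 0.46, Pde10a by 0.30, Pde3b by 0.27 and Pde4b by 0.24. Within batches, the PA differences of Pde1c were 0.26 and 0.25 in Ctr and 0.25 and 0.14 in αGlu cells, and those of Pde10a −0.16 and −0.23 in Ctr and −0.25 and −0.23 in αGlu cells. Pde1c, Pde4b, Pde4d and Pde10a kept their PA direction in each batch in both Ctr and αGlu cells. With 1 batch alone the test called Pde4b in batch 1 and Pde10a in batch 2 in Ctr cells, where 12.6% and 11.7% of all genes were called. In αGlu cells it called 2 members in batch 1 and 3 in batch 2, where 10.2% and 12.1% of all genes were called, and the PA calls of Pde1c and Pde4d were lost in each batch. Without the batch term Pde1c and Pde10a were no longer called in Ctr cells (adjusted p = 0.255 and 0.214), nor in αGlu cells (adjusted p = 0.440 and 0.131), and Pde4d was no longer called in αGlu cells (adjusted p = 0.0563). Acinar cell markers differed between the batches as well, with a summed level of 2941 to 21187 CPM in batch 1 and 213 to 584 CPM in batch 2, and their part in the batch differences was not tested.

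Markers of other cell types moved with PA. The 8 markers of pericytes and smooth muscle cells, among them Pdgfrb, Rgs5, Acta2 and Myh11, all fell in both Ctr and αGlu cells. Their summed level was 242 to 458 CPM in Ctr BSA and 190 to 419 in αGlu BSA, against 22.8 to 74.2 in Ctr PA and 26.4 to 54.3 in αGlu PA. BSA and PA libraries did not overlap. Of the 7 tested fibroblast and stellate cell markers 5 fell in Ctr and 3 in αGlu cells, and of the 7 acinar cell markers 5 fell in each. Of the 5 ductal markers Krt19 and Sox9 fell in both. Of the 10 macrophage markers 7 fell in Ctr cells and 1, Csf1r, in αGlu cells, but no gene was called for the difference of responses. The summed macrophage markers were 83 to 365 CPM in Ctr BSA and 85.3 to 129 in Ctr PA, and 94.6 to 175 and 83 to 139 in αGlu cells, so all groups overlapped. No marker of these lists was at 0 throughout a group.

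After centring on the batch means, Pearson's r over 24 libraries between the level of a gene and the summed pericyte markers was 0.83 for Pde4b, 0.69 for Pde10a, 0.54 for Pde4d, 0.47 for the Pde2a row and −0.69 for Pde1c. For the sum of the Pde2a and Gm45837 rows, r was 0.71 with acinar cell markers, 0.69 with pericyte markers and 0.65 with fibroblast markers. The pericyte markers set PA and BSA libraries fully apart, while the acinar and fibroblast markers overlapped between them. The libraries of both treatments were pooled in these values, so r with the pericyte markers also holds the PA difference of a gene. Other lists were correlated as well, and for Pde1c r was −0.52 with delta cell and −0.49 with beta cell markers. The part of cell composition in the changes of the 10 genes was not tested.

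**Figure D5:**
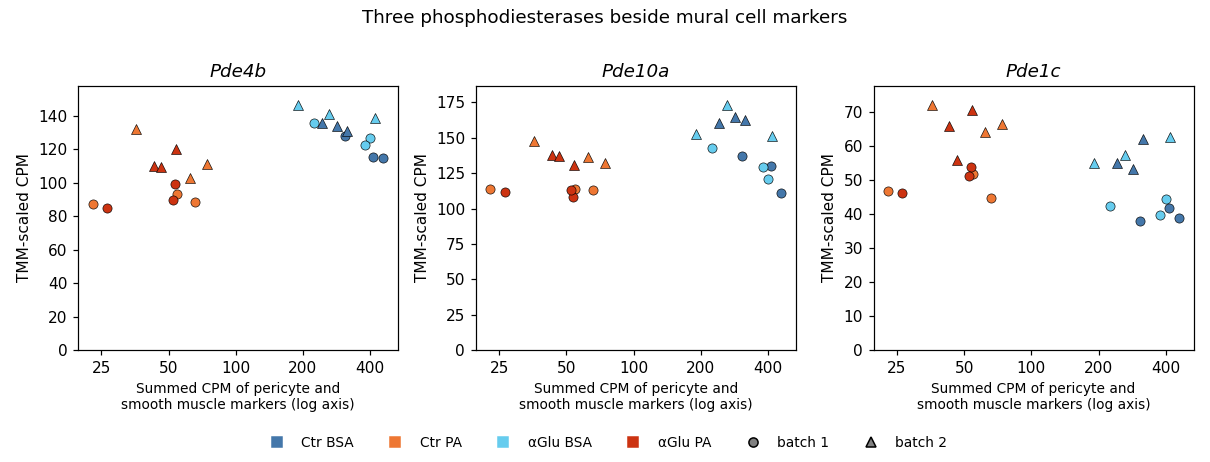
TMM-scaled CPM of Pde4b, Pde10a and Pde1c in each library (linear axes from 0) against the summed CPM of the pericyte and smooth muscle cell markers (log axis), with colours for groups and shapes for batches. The markers lie at 190 to 458 CPM in the BSA libraries and at 22.8 to 74.2 CPM in the PA libraries, so each panel shows 2 separate clouds of points.

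Among the other 10 tested class I genes, Pde5a, which encodes a cGMP-specific enzyme, rose and Pde7a, which encodes a cAMP-specific one, fell with PA. The median CPM of Pde5a was 38.2 in Ctr BSA and 45.3 in Ctr PA, and 37.1 and 45.7 in αGlu cells. Pde5a rose by 0.33 (adjusted p = 0.00424) and 0.24 (adjusted p = 0.0327). The median CPM of Pde7a was 15.8 and 12.8 in Ctr and 15.5 and 13.1 in αGlu cells, and it fell by 0.31 (adjusted p = 0.0246) and by 0.33 (adjusted p = 0.0171). None of the other 10 was called for αGlu against Ctr by edgeR or DESeq2, and at an unadjusted p below 0.05 it was 1 gene, Pde1b, with BSA and with PA.

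The genes around the phosphodiesterases in the pathway were counted from lists. These lists were chosen with earlier results of these data known, so their called shares are a description only. Of 95 tested pathway genes other than phosphodiesterases, 38 were called with PA in Ctr cells, 13 higher and 25 lower, and 34 in αGlu cells, 12 higher and 22 lower. These were 40% and 35.8% of the list, beside 30% and 28.5% of all genes. Their median log2 difference was −0.06 in both, beside 0.01 over all genes. For αGlu against Ctr, 0 of the 95 were called by edgeR or DESeq2, and 1 with BSA and 2 with PA had an unadjusted p below 0.05, beside 2.90% and 3.38% of all genes.

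Of the 10 adenylyl cyclases, which make cAMP, 1 rose and 3 fell in both Ctr and αGlu cells. This was a called share of 40% in each, beside 30% and 28.5% of all genes. Adcy8, activated by calcium and calmodulin, rose by 1.02 and 0.76 on the log2 scale, and Adcy5 fell by 0.88 and 1.03 and Adcy7 by 1.70 and 1.76. Of the 8 tested guanylyl cyclase and natriuretic receptor genes, 2 rose and 1 fell in Ctr cells and 1 fell in αGlu cells. Their called shares were 37.5% and 12.5%, beside the same 30% and 28.5% of all genes. Npr3, the natriuretic peptide clearance receptor, fell by 2.80 and 1.65. Gucy1b1, a subunit of soluble guanylyl cyclase, rose by 0.43 and Gucy2c by 0.26 in Ctr cells.

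Of the 18 tested kinases and other effectors, 3 rose and 2 fell in Ctr cells and 2 rose and 1 fell in αGlu cells. The called shares, 27.8% and 16.7%, were below the 30% and 28.5% of all genes. Rapgef4, which encodes Epac2, fell by 0.24 and 0.25, and Hcn3, a hyperpolarization-activated channel, rose by 0.46 and 0.38. Of 14 anchoring proteins, which hold protein kinase A in place, 5 fell in Ctr cells, and 5 fell and 1 rose in αGlu cells. For these anchors the shares were 35.7% and 42.9%, beside 30% and 28.5% of all genes. Akap5 fell by 2.21 and 2.34, and Akap12 by 1.31 and 1.85. The median CPM of Akap5 was 11 in Ctr BSA and 2.35 in Ctr PA.

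Of the 28 G proteins and cAMP-coupled receptors, 4 rose and 3 fell in Ctr cells and 6 rose and 2 fell in αGlu cells. Their called shares were 25% and 28.6%, beside 30% and 28.5% of all genes. Vipr2, a receptor for vasoactive intestinal peptide, rose by 1.28 and 1.42, from a median of 4.64 CPM in Ctr BSA to 10.4 in Ctr PA. Adcyap1r1, the receptor for the related peptide PACAP, fell by 2.82 and 2.74.

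The list of CREB factors, their coactivators and cAMP-responsive genes had the largest called share of these lists, with 3 of 17 higher and 11 lower in Ctr cells and 2 higher and 10 lower in αGlu cells. Over all genes 15.5% were higher and 14.5% lower in Ctr, and 14.4% and 14.2% in αGlu cells. Its median log2 difference was −0.24 and −0.19. Per1 fell by 0.70 and 0.68, from a median of 130 CPM in Ctr BSA to 77.7 in Ctr PA. Nr4a1 fell by 0.84 and 0.99, and Sik1 by 0.50 and 0.55. Many genes of this list respond to signals other than cAMP, and cAMP itself was not measured.

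The 10 genes did not vary as a block. Over 24 libraries, after centring on batch means, Pearson's r between 2 of them ran from −0.62 for Pde1c and Pde10a to 0.78 for Pde4b and Pde10a, with a median of 0.14 over 45 pairs. Pde4b and Pde4d had r of 0.75 and Pde4d and Pde10a 0.68. These correlations are over libraries that share the same PA and BSA groups.

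The tested genes most like each member were found by the same measure. They were Apbb2 (0.94), Fgfr2 (0.94) and Bicc1 (0.93) for Pde4b, Ythdc1 (0.93), Itsn2 (0.92) and Shroom2 (0.92) for Pde10a, and Rybp (0.91), Rfx3 (0.90) and Zhx1 (0.90) for Pde3b. For Pde1c they were Ccl28 (0.88), Hapln1 (0.87) and Pon3 (0.87), and for Pde4d Pcdh15 (0.85), Itpr1 (0.84) and Helz (0.84). The low-count genes had weaker partners, with a highest r of 0.76 for Pde4a (Eppk1), 0.75 for Pde8b (Zfp456), 0.73 for Pde3a (Ogn) and 0.65 for Pde1a (Abcb11). The Pde2a row was most like Isg20l2 (0.79), while the sum of the Pde2a and Gm45837 rows was most like Nfe2l2 (0.91), Gm20219 (0.88) and Fosl2 (0.88).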

How the data were processed

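The 24 mouse islet libraries were made by the authors with the Illumina Stranded mRNA kit and sequenced on an AVITI instrument, and the reads were processed in the QIAGEN RNA-seq Analysis Portal. Per the labels, the build was GRCm38. The aligner, the annotation release and the strand setting were not given in the sources used here. Exon counts per gene and library were deposited by the authors and were tested. The authors' TPM served to compare levels between genes. The other 48 columns of the table, RPKM and CPM values, were not used. A row without a gene held 0 counts and was left out. Counts do not separate isoforms, and reads carried no molecular identifiers, so counting error alone understates the spread.

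Counts were scaled by TMM, filtered with filterByExpr and fitted with edgeR 4.0.16 (quasi-likelihood, R 4.3.3), with terms for group and batch over all 24 libraries, and p-values were adjusted by Benjamini-Hochberg over 15916 genes. The procedure was run on simulated data without batch differences, for PA against BSA in Ctr cells only. That run could not test how the fit handles batch or shared animals. DESeq2 1.42.0, other filters and terms, each batch alone and the omission of each library were alternatives. Every member was named, the other phosphodiesterases where called, and up to 3 called genes of smallest p from each pathway list. The members and lists were chosen with earlier results of these data known. Of the identifiers in the table, 41474 were found in GENCODE M21, from which exons, coordinates and sequences at the Pde2a locus were read. The sequences of the oligonucleotide and its target came from the study's methods.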

Additional observations from a re-analysis of the deposited data

Results flagged for a closer look

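Pde3b stood out in 1 Ctr PA library, S23 of batch 2, which held 229 CPM while the next of the 6 held 162 CPM. This gap was 0.701 of the group's range, above the critical value of 0.625 for 6 values. It was the only one among 40 groups of 6 libraries examined, where chance gives about 1 in 20. That rate and the critical value assume libraries alike but for random spread. Each group here held both batches, and Pde3b was higher in batch 2 by 0.27 on the log2 scale. S23 was also the highest Ctr PA library for Pde1c, Pde3a, Pde4b, Pde8b and Pde10a, but not for Pde1a, Pde2a, Pde4a and Pde4d. It had 17367 genes detected, the fewest of the 24 libraries.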

How the results depend on the processing

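Counting error is large for Pde1a, with 5 to 64 counts in a library, and the Pde2a row is limited by the division of reads with Gm45837. The counts of members called were 3 in Ctr and 5 in αGlu cells for PA against BSA, and 0 for αGlu against Ctr with PA and for the difference of responses. Without the batch term they were 1 and 2 for PA, in batch 1 alone 1 and 2, and in batch 2 alone 1 and 3. Of all genes, 12.6% and 10.2% were called in batch 1 alone and 11.7% and 12.1% in batch 2 alone. Such shares are not given here for fits without the batch term, without a filter, with only the groups compared or with libraries left out. Counts from those fits describe the members only. At a fold above 2 with an unadjusted p below 0.05 the members called were 0 and 1, with 1 for αGlu against Ctr with PA and 1 for the difference of responses. For αGlu against Ctr with PA the count was also 1 with DESeq2, without a filter, with only the groups compared, and without the Ctr BSA libraries S9 and S21, which were highest in glial markers, and this was always the Pde2a row (adjusted p = 1.28e-04, 0.00251, 0.0417 and 0.0269). Leaving out 1 library gave 3 to 4 and 4 to 5 members for PA, 0 for αGlu against Ctr with BSA, and 0 to 1 for αGlu against Ctr with PA, where 6 of 24 omissions called the Pde2a row. The log2 difference of that row ranged from −3.46 in batch 2 to −0.01 when summed with Gm45837. That sum and the omission of S9 and S21 were chosen after seeing the data. No fitted difference changed sign where it was called. No paired analysis was possible because the labels give the groups no shared replicate numbers and do not say which libraries came from the same animals.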
